A study of Mus musculus with 15 samples.

Results

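Protease inhibitor genes of 4 structural kinds were followed in mouse islets that expressed a constitutively active NFAT: the serpins, the Kazal inhibitors named Spink, the Kunitz inhibitors named Spint and the WAP domain proteins named Wfdc, together with the murinoglobulins Mug1 and Mug2. The 96 members were taken by symbol from the 20308 rows of the table of all genes. Of these, 25 had a 75th percentile over the 15 libraries above 10 and were among the 14151 genes tested. The other 71 members stayed at or below that level, 18 of them at 0 in every library.

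Islets of C57BL/6 mice were transduced with an adenovirus for ca-Nfatc1, for ca-Nfatc2 or for GFP, the control, and RNA was sequenced 48 hr later in 5 libraries per virus. In the ca forms, serine residues of the regulatory domain are replaced by alanine, so that the protein stays active without a calcium signal. On each of 5 days about 1200 islets pooled from 6 mice were divided among the 3 viruses, so that a library stands for pooled animals and the 3 libraries of a day share their donors. The viral promoter was that of cytomegalovirus, which does not select a cell type, and the RNA came from whole islets: fewer cells of a type and less RNA per cell cannot be told apart. All 3 groups carried an adenovirus, and islets without one were not analysed here.

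Values are normalized expected counts, that is estimated read counts divided by a size factor of the library. The libraries held 15.32M to 21.13M expected counts with ca-Nfatc1, 13.52M to 19.84M with ca-Nfatc2 and 13.36M to 18.87M with GFP (M, 1e6), and 1 expected count was worth 0.778 to 1.34 units. A count of 0 therefore allows a level of up to 2.33 to 4.03 units (3 counts), for counting error only. The transduced genes followed the labels: Nfatc1 lay at 24705 to 29292 in ca-Nfatc1 islets, against 166 to 291 in GFP islets, and Nfatc2 lay at 37600 to 89098 in ca-Nfatc2 islets, against 414 to 693 in GFP islets. Of 8 beta cell markers, all tested, 6 fell with ca-Nfatc1 and 8 with ca-Nfatc2, and 0 rose. Over all genes, 28.4% fell with ca-Nfatc1 and 32.8% with ca-Nfatc2. Differences were tested with limma on log2(value + 1), two-sided, with p adjusted over all 14151 genes, and a gene was called at an adjusted p under 0.05. Because of the added 1, fold changes of genes with low values come out too small.

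Protease inhibitors fall into a few chemical designs. A serpin offers a reactive loop as bait, and once the protease cuts it, the serpin folds around the enzyme and traps it for good, so that each molecule works once. Kazal, Kunitz and WAP domains instead plug the active site in a tight and reversible way. The murinoglobulins, relatives of alpha-2-macroglobulin, are cut in a bait region and then bind the protease. Clade A serpins and murinoglobulins are known mostly as plasma proteins made by the liver, clade B serpins mostly stay inside the cell, and several serpins, such as the hormone carrier Serpina7 and the collagen chaperone Serpinh1, inhibit no protease.

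With ca-Nfatc1, 10 of the 25 tested members were higher and 7 lower than with GFP, and 8 were not called. With ca-Nfatc2, 8 were higher, 8 lower and 9 not called. The background was high. Of all genes tested 56.8% were called in either direction with ca-Nfatc1 and 68.6% with ca-Nfatc2, and by direction, 28.4% rose and 28.4% fell with ca-Nfatc1, while 35.7% rose and 32.8% fell with ca-Nfatc2. Rises of at least 4-fold were called for 8 members with ca-Nfatc1 and 7 with ca-Nfatc2, against a background of 5.00% and 5.94% of genes, and 0 members fell by as much with either ca-NFAT, against 0.523% and 1.06% of genes. Of these risers, 7 of 8 with ca-Nfatc1 and 6 of 7 with ca-Nfatc2 had GFP means of 0.269 to 6.22 units, Serping1 being the exception. They passed the filter only through the ca-NFAT libraries in which they are high, so that the counts of risers are a description. For 10 members all 5 ca-Nfatc1 libraries lay above all 5 GFP libraries and for 4 members below, against 22.4% and 19.9% of all genes. For ca-Nfatc2 this held for 8 members above and 5 below, against 27.7% and 24.3% of all genes. The median log2 fold change over the members was -0.11 with ca-Nfatc1 and -0.17 with ca-Nfatc2, against -0.02 and 0.01 over all genes, so that the median member was not higher than in GFP islets.

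**Figure D1:**
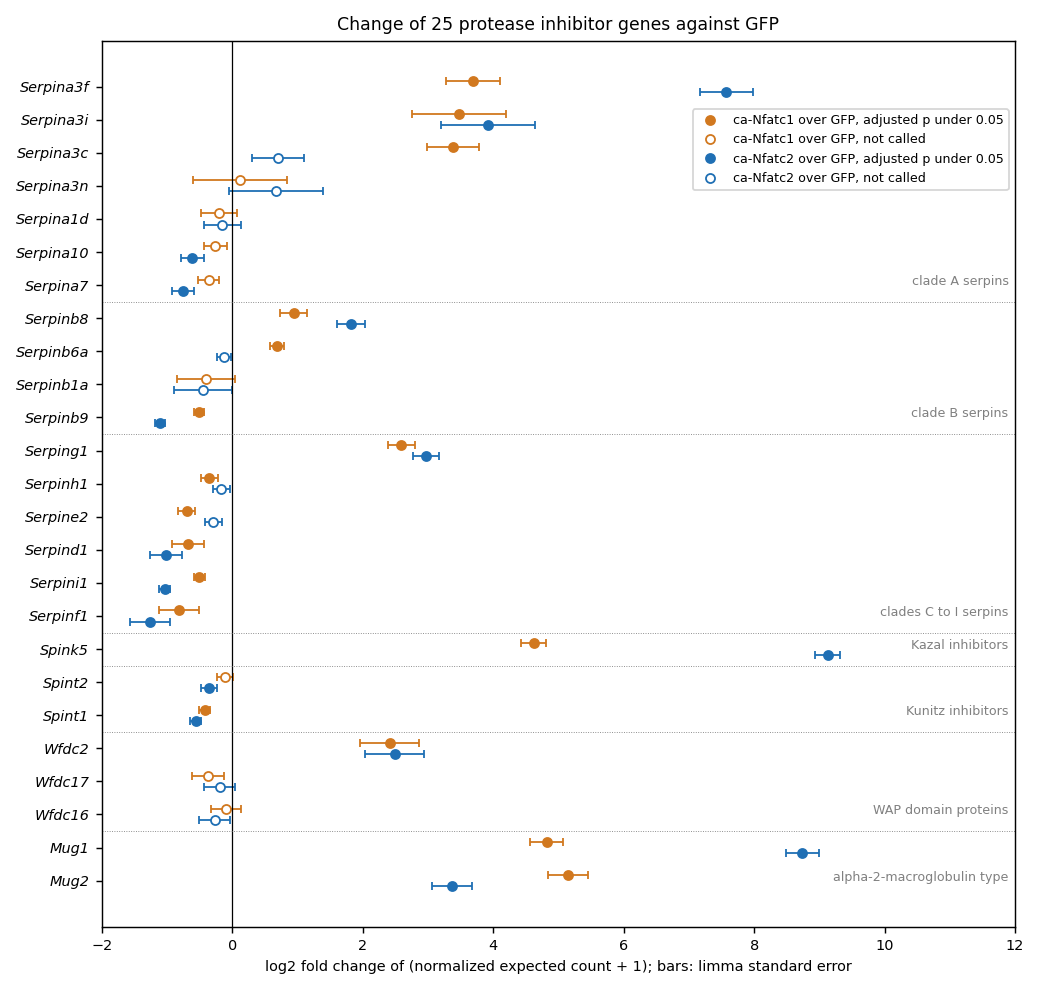
Log2 fold change against GFP on the log2(value + 1) scale (horizontal axis) for the 25 tested protease inhibitor genes, grouped by kind, with ca-Nfatc1 over GFP in orange and ca-Nfatc2 over GFP in blue. Filled points had an adjusted p under 0.05 and bars are the limma standard error; Spink5 at 9.13, Mug1 at 8.74 and Serpina3f at 7.57 stand farthest right with ca-Nfatc2, and most serpins expressed in GFP islets lie left of 0.

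The summed values of the 25 tested members took 1524 to 2264 parts per 1e6 of the library total with ca-Nfatc1 and 1726 to 2799 with ca-Nfatc2, against 1022 to 1285 with GFP. The ranges of each ca-NFAT lay wholly above that of GFP. Serping1 alone made up 48.3% of the summed member values in ca-Nfatc1 islets and 52.4% in ca-Nfatc2 islets. In GFP islets it made up 12.7%. Spink5 made up 10.02% in ca-Nfatc2 islets and 0.5245% in ca-Nfatc1 islets, against 0.02941% in GFP islets. It passed the filter only through the ca-NFAT libraries. The higher sum is not a rise of the members as a set. Their median log2 fold change against GFP was -0.11 with ca-Nfatc1 and -0.17 with ca-Nfatc2. The sum without Serping1 and Spink5 was not tested. Per kilobase of transcript, the highest member level in GFP islets was that of Spint2 at 2551 units, followed by Serpina10 at 1513, Serpinb6a at 1511, Serping1 at 1391 and Spint1 at 1166. With a ca-NFAT, Serping1 took the first place, at 8391 units per kilobase with ca-Nfatc1 and 10800 with ca-Nfatc2.

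Spink5 had the largest log2 fold change of the members with ca-Nfatc2. With ca-Nfatc1 Mug2 (5.15) and Mug1 (4.82) were above it, and as a ratio of group means to GFP, Mug1, at 1305 with ca-Nfatc2, was above Spink5 at 639. Spink5 encodes LEKTI, a secreted protein of many Kazal domains that inhibits kallikreins in the outer skin and is lost in Netherton syndrome. The gene (chromosome 18, 43959545 to 44022487, GRCm38.p6) had 4519, 3073, 3209, 3954 and 3496 units in the ca-Nfatc2 libraries, against 4.80, 6.72, 4.47, 8.88 and 3.68 in the GFP libraries. With ca-Nfatc1 it had 221, 144, 131, 135 and 174 units. The 3 groups were fully apart, with ca-Nfatc1 between GFP and ca-Nfatc2. The log2 fold change was 9.13 ± 0.19 (SE) with ca-Nfatc2 (limma adjusted p 1.05e-16) and 4.62 ± 0.19 with ca-Nfatc1 (adjusted p 5.61e-13), and ca-Nfatc2 exceeded ca-Nfatc1 by 4.51 ± 0.19 (adjusted p 1.31e-11).

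The level of Spink5 was set beside some of its known targets and beside skin genes. Klk5 and Klk7, kallikreins that LEKTI inhibits in skin, averaged 0 and 0.245 units with ca-Nfatc2, against 0 and 0 with GFP, under the floor of 3 counts. Other kallikreins are not given here. All 8 surface epithelium markers were below the filter, with summed levels of 5.04 to 14.4 units in ca-Nfatc1 islets, 4.38 to 14.2 in ca-Nfatc2 islets and 0.921 to 10.8 in GFP islets, and Ivl and Dsg1a were at 0 in every library. Of the 13 Kazal members in the table, Spink5 alone passed the filter. Spink3, the trypsin inhibitor of acinar cells (Spink1 in the reference table), stayed below it, with a mean of 10.7 units with ca-Nfatc1 and 0.6 with ca-Nfatc2, against 0.2 with GFP. Its highest values, 28.8 and 13.1, were those of ca-Nfatc1 replicates 2 and 4, the same libraries in which the 12 acinar markers summed to 1061 and 818 units, against 105 to 228 in the GFP libraries. The part of acinar RNA in Spink3 was not tested.

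**Figure D2:**
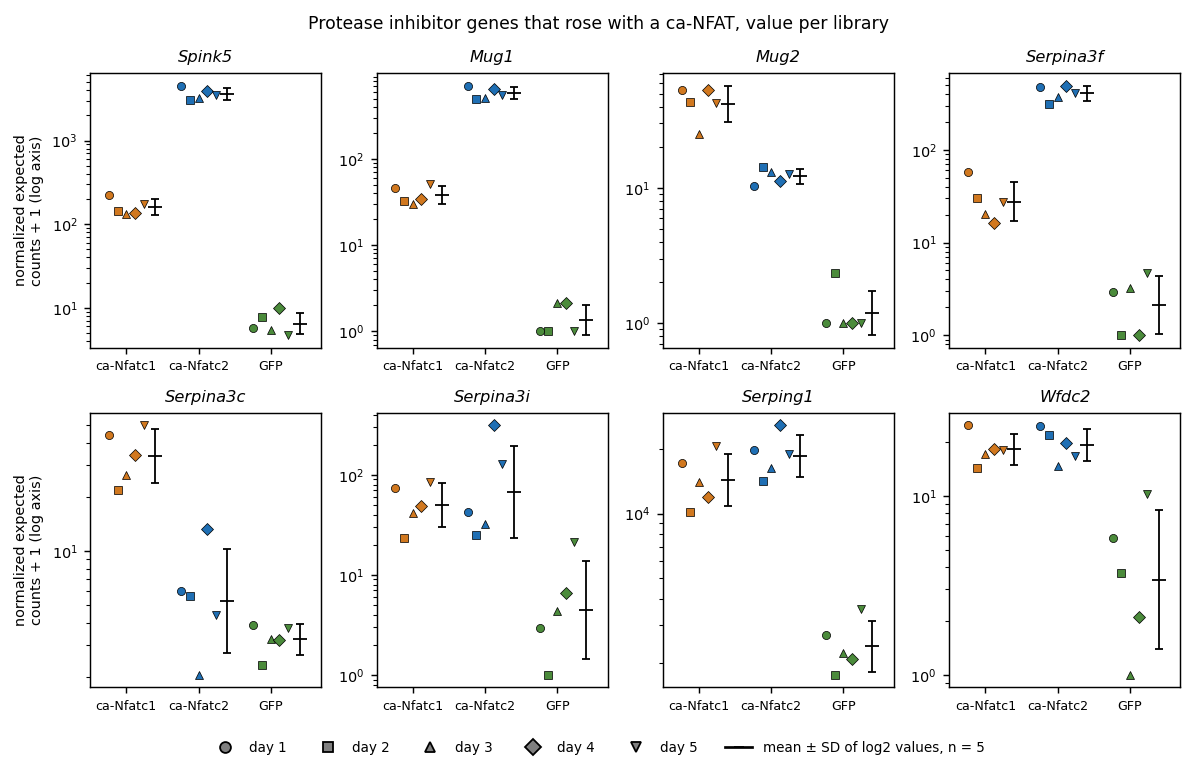
Normalized expected counts plus 1 (log axis) of 8 protease inhibitor genes in every library, ca-Nfatc1 in orange, ca-Nfatc2 in blue and GFP in green; the symbol gives the day, and the bar is the mean ± SD of log2(value + 1), n = 5. For Mug1 the ca-Nfatc2 libraries lie at 495 to 705 units and the ca-Nfatc1 libraries at 29.3 to 50.6, whereas for Mug2 the order of the ca-NFATs is the other way, at 9.30 to 13.2 and 24.0 to 52.3.

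The murinoglobulins lie side by side on chromosome 6, Mug1 at 121838496 to 121889057 and Mug2 at 122006729 to 122085968 (GRCm38.p6), and answered the ca-NFATs in opposite order. In ca-Nfatc2 libraries Mug1 had 705, 495, 508, 652 and 548 units, and in ca-Nfatc1 libraries 44.5, 31.6, 29.3, 33.5 and 50.6. In the GFP libraries it had 0, 0, 1.12, 1.11 and 0 units, 2 expected counts in all. Mug2 had 52.1, 42.6, 24.0, 52.3 and 41.2 units with ca-Nfatc1 and 9.30, 13.2, 12.2, 10.3 and 11.6 with ca-Nfatc2, against 0, 1.34, 0, 0 and 0 with GFP, which is 1 expected count. All libraries of a ca-NFAT were above all GFP libraries for each gene, and the ca-NFAT groups were apart as well. Mug2, and Serpina3c and Serpina3n below, fall outside the rule for genes given library by library and were added after their values were seen.

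In expected counts, the ratio of Mug1 to its GFP level was 1377 with ca-Nfatc2 (95% counting interval 381 to 11373) and 91.3 with ca-Nfatc1 (25 to 759). For Mug2 it was 200.2 with ca-Nfatc1 (35.6 to 7941) and 52.2 with ca-Nfatc2 (9.0 to 2095). These intervals are exact and cover counting error only. Between the ca-NFATs, ca-Nfatc2 over ca-Nfatc1 was 3.92 ± 0.25 on the log2 scale for Mug1 (limma adjusted p 1.54e-09) and -1.78 ± 0.30 for Mug2 (adjusted p 0.000109). Reads of each gene can be shared with other genes. Of the 100-base windows of Mug1 transcripts, 7.90% occur unchanged in a transcript of another gene, 5.29% in Mug2. For Mug2 this held for 27.1% of windows, 23.1% being shared with the pseudogene Mug-ps1. How reads were split between these genes was not tested.

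The starts of the pair are shown because neighbours of like sequence differed in which ca-NFAT gave the higher level. Each window is the 250 bases before the transcript start used in the RefSeq promoter table (GRCm38.p6, plus strand, chr6:121838291-121838540 for Mug1 and chr6:122006548-122006797 for Mug2), and capitals mark TTTCC or GGAAA, the core letters of NFAT sites on either strand. The gene spans given above begin earlier than these transcript starts, so that the last 45 bases of the Mug1 window and the last 69 of the Mug2 window lie inside the span.
Mug1: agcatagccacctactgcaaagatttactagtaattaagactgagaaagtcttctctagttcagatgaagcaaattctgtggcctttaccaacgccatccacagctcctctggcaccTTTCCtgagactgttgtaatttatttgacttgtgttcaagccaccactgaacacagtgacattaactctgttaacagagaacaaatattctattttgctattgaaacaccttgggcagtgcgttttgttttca
Mug2: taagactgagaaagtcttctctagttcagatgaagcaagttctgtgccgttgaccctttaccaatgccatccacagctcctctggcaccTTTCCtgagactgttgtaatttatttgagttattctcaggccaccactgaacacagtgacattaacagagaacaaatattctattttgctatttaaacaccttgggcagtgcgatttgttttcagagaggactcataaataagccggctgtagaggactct
Aligned locally, 197 of 222 columns (88.7%) were identical, and the longest identical run was 52 bases. Each window held 1 TTTCC, inside the same stretch of sequence, 128 bases before the transcript start of Mug1 and 156 bases before that of Mug2, in both before the gene span as well.

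Clade A serpins gave 3 members higher, 0 lower and 4 not called with ca-Nfatc1, and 2 higher, 2 lower and 3 not called with ca-Nfatc2. Over all genes, 28.4% rose and 28.4% fell with ca-Nfatc1, and 35.7% rose and 32.8% fell with ca-Nfatc2. The clade A risers all belonged to the Serpina3 cluster on chromosome 12. This cluster corresponds to the single human gene for alpha-1-antichymotrypsin and has multiplied in the mouse. Serpina3f (104214544 to 104221129) had 475, 313, 366, 490.4 and 412 units with ca-Nfatc2 and 57.3, 29.4, 19.2, 15.2 and 26.4 with ca-Nfatc1, against 1.92, 0, 2.24, 0 and 3.68 with GFP. The 3 groups did not overlap. Its log2 fold change was 7.57 ± 0.41 with ca-Nfatc2 (limma adjusted p 2.26e-11) and 3.69 ± 0.41 with ca-Nfatc1 (adjusted p 4.96e-07).

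Serpina3c (104146907 to 104153929), in the same cluster, had the other order. It had 43.4, 21.0, 25.6, 33.3 and 49.0 units with ca-Nfatc1, against 2.88, 1.34, 2.24, 2.22 and 2.76 with GFP, a log2 fold change of 3.39 ± 0.40 (limma adjusted p 1.07e-06). With ca-Nfatc2 it had 5.03, 4.62, 1.05, 12.2 and 3.44 units, which overlapped GFP (log2 fold change 0.70 ± 0.40, adjusted p 0.126; 1.04 with adjusted p 0.0140 without ca-Nfatc2 replicate 3). Between the ca-NFATs, ca-Nfatc2 over ca-Nfatc1 was 3.88 ± 0.41 for Serpina3f (adjusted p 5.78e-07) and -2.68 ± 0.40 for Serpina3c (adjusted p 2.74e-05). No 100-base window of Serpina3c and 3.40% of those of Serpina3f occur in another gene's transcripts.

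Serpina3i (104263045 to 104269509) rose with both. It had 72.7, 22.6, 40.5, 48.4 and 84.5 units with ca-Nfatc1 and 42.0, 24.0, 31.4, 312 and 128 with ca-Nfatc2, against 1.92, 0, 3.35, 5.55 and 20.3 with GFP. Every ca-NFAT library lay above every GFP library, though the lowest ca-Nfatc1 value was only just above the highest GFP value. The log2 fold change was 3.48 ± 0.72 with ca-Nfatc1 (limma adjusted p 0.000518) and 3.92 ± 0.72 with ca-Nfatc2 (adjusted p 0.000118), and the ca-NFATs differed by 0.44 (-1.01 to 1.89 at 2 SE either side; adjusted p 0.645). Serpina3n, an acute-phase gene in liver, was not called: it had 109, 24.6, 48.6, 821 and 299.7 units with ca-Nfatc2 and 151, 46.5, 87.5, 60.5 and 126 with ca-Nfatc1, against 96.9, 29.6, 53.7, 101 and 201 with GFP. The ranges of the 3 groups overlapped.

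The windows of the risers of the cluster are shown for the same reason as those of the murinoglobulins, each 250 bases before the transcript start of the RefSeq promoter table (GRCm38.p6; Serpina3f chr12:104214294-104214543 and Serpina3i chr12:104262872-104263121 on the plus strand, Serpina3c chr12:104153873-104154122 on the minus strand), with TTTCC and GGAAA in capitals.
Serpina3f: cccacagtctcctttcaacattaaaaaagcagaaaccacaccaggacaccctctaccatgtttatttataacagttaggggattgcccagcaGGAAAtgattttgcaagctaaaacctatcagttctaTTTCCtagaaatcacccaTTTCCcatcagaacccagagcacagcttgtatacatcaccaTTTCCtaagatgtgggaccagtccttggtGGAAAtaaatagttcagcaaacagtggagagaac
Serpina3i: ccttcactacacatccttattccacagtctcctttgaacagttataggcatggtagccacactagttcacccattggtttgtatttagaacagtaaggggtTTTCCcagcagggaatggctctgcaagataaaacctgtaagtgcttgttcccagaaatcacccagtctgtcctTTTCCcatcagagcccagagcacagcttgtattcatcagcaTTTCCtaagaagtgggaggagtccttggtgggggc
Serpina3c: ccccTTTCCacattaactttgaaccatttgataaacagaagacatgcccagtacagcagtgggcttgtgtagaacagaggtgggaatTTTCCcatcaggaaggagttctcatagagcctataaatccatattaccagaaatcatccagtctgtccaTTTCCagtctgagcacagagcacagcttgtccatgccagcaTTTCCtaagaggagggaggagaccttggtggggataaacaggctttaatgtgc
In local alignments 77.3% of columns were identical between Serpina3f and Serpina3i, 73.8% between Serpina3i and Serpina3c and 67.1% between Serpina3f and Serpina3c. All 3 windows, and that of Serpina3n, carried a pair of TTTCC 41 bases apart from one match to the next, the nearer at 58 bases from that transcript start in Serpina3f, 30 in Serpina3i, 48 in Serpina3c and 51 in Serpina3n. The gene span of Serpina3f begins at its transcript start, but those of Serpina3i, Serpina3c and Serpina3n begin 77, 57 and 62 bases before theirs. The nearer TTTCC therefore lies inside the span of these 3 genes, and in Serpina3i the other of the pair as well. Windows with this pair belonged to genes called higher with 1 ca-NFAT, with both or with neither.

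Promoter windows were found for 21 of the 25 tested members; Spink5, Serping1, Serpina10 and Serpinb1a had none. GGAAA, searched on both strands, occurred in 15 of 21, against 55.6% of 27025 promoter windows of the same length. TGANTCA, the letters of an AP-1 site, occurred in 2 of 21 (Serpina1d and Serpinb8), against 6.87% of all windows. Both motifs side by side, GGAAA then TGANTCA with 4 or with 5 free bases between them (overlapping by construction with each single motif), occurred in 0 of 21, against 0.0592% and 0.0222% of all windows. A match is a run of letters and not a measured binding site.

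As clade A serpins and murinoglobulins are liver products, hepatocyte markers were read beside them. Of 11 in the table, 6 were tested, 2 of them higher and 2 lower with ca-Nfatc1, 1 higher and 2 lower with ca-Nfatc2. Their summed level was 392 to 550 units with ca-Nfatc1 and 663 to 1725 with ca-Nfatc2, against 634 to 772 with GFP. Albumin was near 0, at 6.14 ± 1.63 (SD, n = 5) with ca-Nfatc1 and 6.51 ± 2.30 with ca-Nfatc2, against 12.6 ± 2.90 with GFP, and Ahsg averaged at most 0.557 units in any group. Ambp, Trf and Fgb were expressed in GFP islets, at 452, 106 and 74.0 units, Ambp and Trf being lower with both ca-NFATs and Fgb not called. Higher were Apoa2 with ca-Nfatc1, at 48.2 ± 8.67 units, against 30.1 ± 3.95 with GFP (limma adjusted p 0.00719), and Apoa1 with both, at 159 ± 25.3 units with ca-Nfatc1 and 654 ± 180.0 with ca-Nfatc2, against 1.11 ± 2.48 with GFP.

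The other clade A members were expressed in GFP islets and lower, or not called, with a ca-NFAT. Serpina10, the inhibitor of coagulation factor Xa that uses protein Z as cofactor, had 2455, 1548, 1924, 3840 and 2942 units with ca-Nfatc2 and 3484, 2913, 2686, 3203 and 3209 with ca-Nfatc1, against 3917, 3654, 2963, 3845 and 4243 with GFP. The groups overlapped, with ca-Nfatc2 replicate 4 inside the GFP range. Day by day, however, the ca-Nfatc2 library was below that of GFP on all 5 days, on day 4 only just. With the day as a block the limma adjusted p of Serpina10 with ca-Nfatc2 was 0.000468. The log2 fold change was -0.61 ± 0.18 with ca-Nfatc2 (limma adjusted p 0.00519) and -0.26 with ca-Nfatc1 (adjusted p 0.220), where it was lower on all 5 days and had an adjusted p of 0.0297 in a fit of these 2 groups alone. Serpina7, the carrier of thyroid hormone, averaged 339 ± 62.2 units with ca-Nfatc1 and 256 ± 19.8 with ca-Nfatc2, against 449 ± 155 with GFP. It was lower with ca-Nfatc2 (log2 fold change -0.75, adjusted p 0.000641) and not called with ca-Nfatc1 (-0.36, adjusted p 0.0703), where its adjusted p was 0.0244 without ca-Nfatc1 replicate 2, 0.0248 without GFP replicate 3 and 0.05 without GFP replicate 2. Without GFP replicate 5, the highest at 712 units, the difference with ca-Nfatc1 was -0.18 (adjusted p 0.220). Serpina1d, a copy of alpha-1-antitrypsin whose transcripts share 29.3% of their windows with other genes, averaged 16.9 with ca-Nfatc1 and 18.0 with ca-Nfatc2, against 19.8 with GFP, and was not called.

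Serping1 rose with both ca-NFATs. It encodes the C1 inhibitor, which restrains the complement proteases C1r and C1s and the contact proteases factor XII and kallikrein. It had 17214, 10180, 14052, 12004 and 20728 units with ca-Nfatc1 and 19972, 14228, 16292, 25926 and 19010 with ca-Nfatc2, against 2690, 1752, 2209, 2073 and 3576 with GFP. All ca-NFAT libraries were above all GFP libraries, and the ca-NFAT groups overlapped. The log2 fold change was 2.59 ± 0.20 with ca-Nfatc1 (limma adjusted p 5.29e-09) and 2.97 ± 0.20 with ca-Nfatc2 (adjusted p 6.12e-10). The difference of 0.38 between the ca-NFATs was not called (adjusted p 0.132), whereas a replicate block for the day gave it an adjusted p of 0.0207, and without ca-Nfatc1 replicate 5 it was 0.0459.

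ca-Nfatc2 replicate 4 held the highest ca-Nfatc2 value of 14 of the 25 members, among them Serpina3n at 821 units and Serpina3i at 312, and it also had the highest Nfatc2 value, 89098. Other libraries came near such a count. GFP replicate 5 held the highest GFP value of 12 members, and ca-Nfatc2 replicate 2 the lowest ca-Nfatc2 value of 12. By Dixon's ratio ca-Nfatc2 replicate 4 was not an outlier for any tested member. Serpina3g, below the filter, had 34.4 units in that library, the highest value of any member below the filter, against 4.87 to 9.75 in the other ca-Nfatc2 libraries. The hepatocyte markers, whose sum includes the strongly risen Apoa1, summed to 1725 units in this library, against 663 to 968 in the other ca-Nfatc2 libraries. Ductal markers summed to 12302 units there, against 4787 to 8512 in the others, and beta cell markers to 525545, against 640245 to 947653. The part of these in the members' values was not tested.

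**Figure D3:**
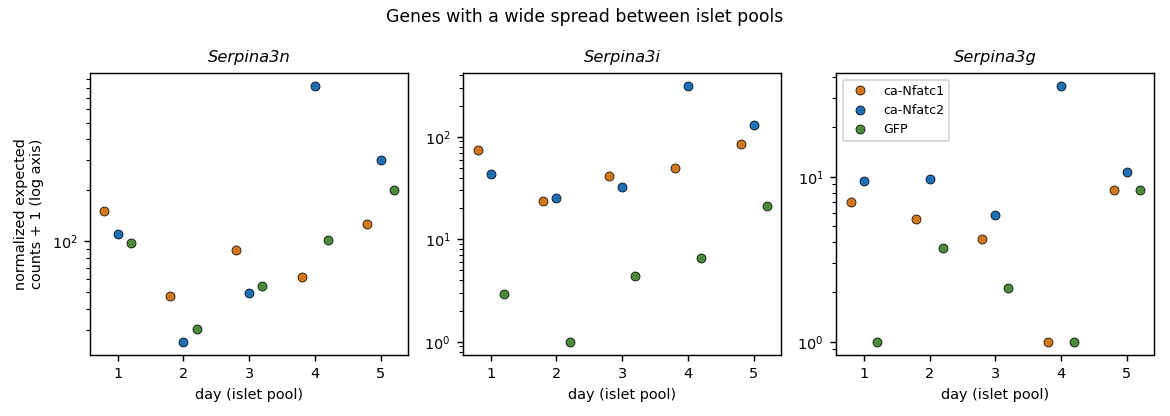
Normalized expected counts plus 1 (log axis) of Serpina3n, Serpina3i and Serpina3g against the day of the islet pool, with ca-Nfatc1 in orange, ca-Nfatc2 in blue and GFP in green. On day 4 the ca-Nfatc2 library lies above every other library of these genes, for Serpina3n at 821 units, for Serpina3i at 312 and for Serpina3g at 34.4.

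Apart from Serping1, the serpins of clades C to I described here were lower or not called. With ca-Nfatc1 the 6 tested members counted 1 higher and 5 lower, and with ca-Nfatc2 1 higher, 3 lower and 2 not called. Of all genes 56.8% were called in either direction with ca-Nfatc1 and 68.6% with ca-Nfatc2, and 28.4% and 32.8% were lower. Serpini1, neuroserpin, an inhibitor of tPA in neurons and endocrine cells, averaged 839.8 ± 93.5 units with ca-Nfatc1 and 581 ± 62.2 with ca-Nfatc2, against 1191 ± 84.8 with GFP (SD, n = 5 each). The groups did not overlap, with log2 fold changes of -0.51 with ca-Nfatc1 (limma adjusted p 7.04e-05) and -1.04 with ca-Nfatc2 (adjusted p 8.05e-09), and ca-Nfatc2 was lower than ca-Nfatc1 by 0.53 (adjusted p 6.96e-05). Serpine2, protease nexin-1, which blocks thrombin and uPA at the cell surface, averaged 412 ± 50.8 with ca-Nfatc1 and 550.1 ± 87.9 with ca-Nfatc2, against 675 ± 121 with GFP. It was lower with ca-Nfatc1 (log2 fold change -0.70, adjusted p 0.000146) and just missed the threshold with ca-Nfatc2 (-0.29, adjusted p 0.0517; 0.0151 when the day entered as a block). Without ca-Nfatc1 replicate 2, ca-Nfatc2 replicate 3 or 4, or GFP replicate 2 or 4 that Serpine2 value was 0.0214 to 0.0491.

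Serpinf1, the antiangiogenic factor PEDF, averaged 48.6 ± 9.34 units with ca-Nfatc1 and 37.7 ± 15.2 with ca-Nfatc2, against 92.6 ± 41.9 with GFP, with a log2 fold change of -1.26 with ca-Nfatc2 (limma adjusted p 0.00144). Serpind1, heparin cofactor II, which inhibits thrombin, averaged 10.7 with ca-Nfatc1 and 7.85 with ca-Nfatc2, against 17.2 with GFP, a log2 fold change of -1.02 with ca-Nfatc2 (adjusted p 0.00128). Serpinh1 averaged 968 with ca-Nfatc1 and 1094 with ca-Nfatc2, against 1239 with GFP. With ca-Nfatc1 the 3 genes were called near the threshold (Serpinf1 -0.82, adjusted p 0.0296; Serpind1 -0.68, 0.0245; Serpinh1 -0.35, 0.0284), and with the day as a block their adjusted p were 0.00703, 0.0234 and 0.00232. The call of Serpinf1 was lost without ca-Nfatc1 replicate 1 or 4 or GFP replicate 3 or 5 (-0.62 to -0.78, adjusted p 0.057 to 0.092), that of Serpind1 without ca-Nfatc1 replicate 4 or 5 or GFP replicate 3 (-0.56 to -0.59, 0.0645 to 0.0683), and that of Serpinh1 without ca-Nfatc1 replicate 2 or 4 or GFP replicate 3 or 5 (-0.27 to -0.31, 0.0724 to 0.0875). Without ca-Nfatc1 replicate 4 the count of members lower with ca-Nfatc1 was 4 in place of 7.

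The clade B serpins split. Serpinb6a, an inhibitor of trypsin-like proteases and cathepsin G within cells, had 4294, 4027, 2921, 3980 and 3812 units with ca-Nfatc1 and 2081, 1868, 1854, 2652 and 2403 with ca-Nfatc2, against 2422, 2401, 2150, 2354 and 2402 with GFP. The ca-Nfatc1 libraries were above all others, and those of ca-Nfatc2 overlapped GFP. Its log2 fold change was 0.69 ± 0.11 with ca-Nfatc1 (limma adjusted p 2.35e-05) and -0.12 ± 0.11 with ca-Nfatc2 (adjusted p 0.304), and ca-Nfatc2 was lower than ca-Nfatc1 by 0.81 ± 0.11 (adjusted p 6.28e-06). Serpinb9, which inhibits granzyme B and shields cells from their own or a killer cell's granules, went the other way with both, to 620.3 ± 45.4 units with ca-Nfatc1 and 411 ± 43.7 with ca-Nfatc2, against 885 ± 60.3 with GFP. Its groups did not overlap, at -0.51 (adjusted p 2.88e-05) with ca-Nfatc1 and -1.11 (adjusted p 1.21e-09) with ca-Nfatc2. Gzmb itself averaged at most 0.175 units in any group.

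Serpinb8, an inhibitor of furin, averaged 33.4 ± 5.27 units with ca-Nfatc1 and 64.0 ± 21.5 with ca-Nfatc2, against 17.1 ± 3.85 with GFP. Its log2 fold change was 0.94 with ca-Nfatc1 (limma adjusted p 0.00113; 0.54 with adjusted p 0.0611 after quantile normalization) and 1.81 with ca-Nfatc2 (adjusted p 7.14e-07). Serpinb1a, an inhibitor of neutrophil elastase, averaged 18.2 with ca-Nfatc1 and 19.7 with ca-Nfatc2, against 23.9 with GFP, and was not called. The other 22 of 26 clade B members were below the filter. Among them Serpinb1b averaged 0.6 units with ca-Nfatc1 and 0.4 with ca-Nfatc2, against 7.9 with GFP.

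The Kunitz inhibitors Spint1 and Spint2, transmembrane proteins that restrain hepatocyte growth factor activator and the membrane proteases matriptase and hepsin, were among the best expressed members in GFP islets. Spint2 had 2007, 2615, 2699, 2870 and 2559 units with ca-Nfatc2 and 2536, 3096, 3006, 3313 and 3184 with ca-Nfatc1, against 2351, 3469, 4006, 3609 and 3117 with GFP. The groups overlapped, and the day 1 library was the lowest of each. Within days, Spint2 was lower with ca-Nfatc2 than with GFP on all 5, and with ca-Nfatc1 on 3. With the day as a block its limma adjusted p was 5.64e-05 with ca-Nfatc2 and 0.111 with ca-Nfatc1. The log2 fold change was -0.36 ± 0.12 with ca-Nfatc2 (limma adjusted p 0.0143) and -0.11 ± 0.12 with ca-Nfatc1 (adjusted p 0.453). Spint1 had 1694, 1571, 1675, 2240 and 1843 units with ca-Nfatc2 and 2010, 1954, 1769, 1985 and 2167 with ca-Nfatc1, against 2527, 2521, 2675, 2835 and 2692 with GFP. Every ca-NFAT library lay below every GFP library (log2 fold change -0.42, adjusted p 0.000253, with ca-Nfatc1 and -0.56, adjusted p 8.70e-06, with ca-Nfatc2). Of their targets, Hgfac averaged 466 units with ca-Nfatc1 and 369 with ca-Nfatc2, against 741 with GFP, and was lower with both. St14 (matriptase) averaged 315 with ca-Nfatc1 and 371 with ca-Nfatc2, against 449 with GFP, and was lower with ca-Nfatc1 (adjusted p 0.0197) but not called with ca-Nfatc2 (adjusted p 0.164). Hpn (hepsin) averaged 18.8 with ca-Nfatc1 and 10.4 with ca-Nfatc2, against 8.23 with GFP, and was higher with ca-Nfatc1 (log2 fold change 1.07, adjusted p 0.00292) and not called with ca-Nfatc2 (adjusted p 0.439).

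Among the WAP domain proteins, Wfdc2, known as the serum marker HE4, averaged 17.5 ± 3.84 units with ca-Nfatc1 and 18.5 ± 3.88 with ca-Nfatc2, against 3.56 ± 3.64 with GFP. Each ca-NFAT group lay above GFP, by 2.41 (limma adjusted p 0.000198) and 2.49 (adjusted p 0.000102) on the log2 scale. Wfdc16 averaged 177 ± 37.5 with ca-Nfatc1 and 165 ± 61.8 with ca-Nfatc2, against 188 ± 29.1 with GFP, and Wfdc17 averaged 10.6 with ca-Nfatc1 and 12.1 with ca-Nfatc2, against 13.8 with GFP. Neither was called. The other 14 of 17 WAP members were below the filter.

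**Figure D4:**
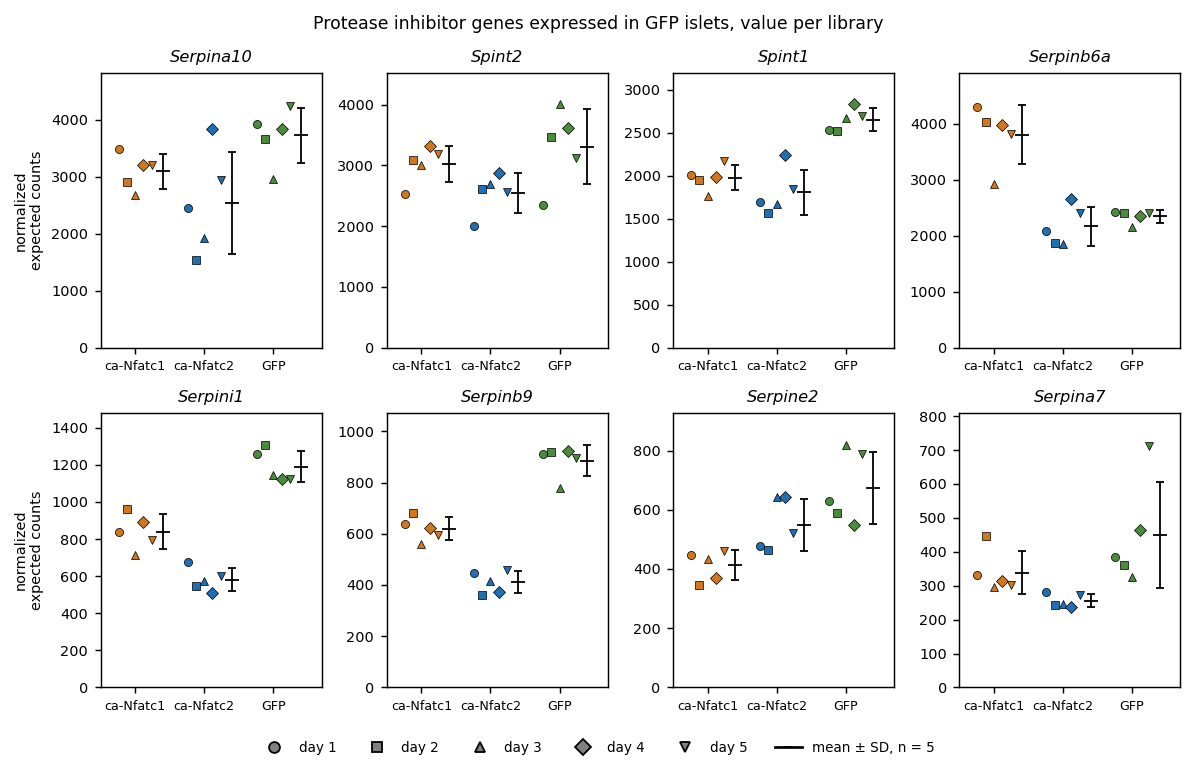
Normalized expected counts (linear axis from 0) of 8 protease inhibitor genes expressed in GFP islets, ca-Nfatc1 in orange, ca-Nfatc2 in blue and GFP in green; the symbol gives the day and the bar is the mean ± SD, n = 5. Serpini1 and Serpinb9 step down by group, Serpinb6a is high with ca-Nfatc1 alone at 2921 to 4294 units, and the groups of Spint2 overlap.

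The ca-NFATs were then set against each other. With ca-Nfatc2, 5 members were higher and 5 lower than with ca-Nfatc1, and 15 were not called; over all genes 49.3% were called, 23.6% higher and 25.7% lower. By at least 4-fold, 3 members were higher and 1 lower, against 1.62% and 0.481% of all genes. Spink5, Mug1 and Serpina3f, the higher ones, passed the filter only through ca-NFAT libraries. Serpina3c, the lower one, passed it only through those of ca-Nfatc1 (34.4 units, against 5.27 with ca-Nfatc2 and 2.29 with GFP). These counts are therefore a description. All ca-Nfatc2 libraries lay above all ca-Nfatc1 libraries for 5 members and below them for 6, against 18.3% and 16.3% of all genes. The 5 higher were Spink5, Mug1, Serpina3f, Serpinb8 (0.88, limma adjusted p 0.00255) and Serpine2 (0.41, adjusted p 0.0131). The 5 lower were Serpina3c, Mug2, Serpinb6a, Serpinb9 (-0.60, adjusted p 8.86e-06) and Serpini1. When the day entered the fit as a replicate block, the lower count was 8 in place of 5, with Spint2 (-0.25, adjusted p 0.00214), Serpina10 (-0.35, adjusted p 0.0268) and Serpina7 (-0.39, adjusted p 0.0456) added. The higher count was 6, with Serping1 added. Without the block Spint2, Serpina10 and Serpina7 had adjusted p of 0.1, 0.108 and 0.0621. In a fit of the ca-NFAT groups alone Spint2 (0.047) and Serpina7 (0.0117) passed. Spint2 also passed without ca-Nfatc1 replicate 1 (0.0495) or GFP replicate 1 (0.0366), and Serpina7 without GFP replicate 3 (0.0491) or 5 (0.0113). Without ca-Nfatc2 replicate 4 the lower count was 7, with Serpina10 (-0.52, adjusted p 0.00779) and Spint1 (-0.22, adjusted p 0.0109) added.

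**Figure D5:**
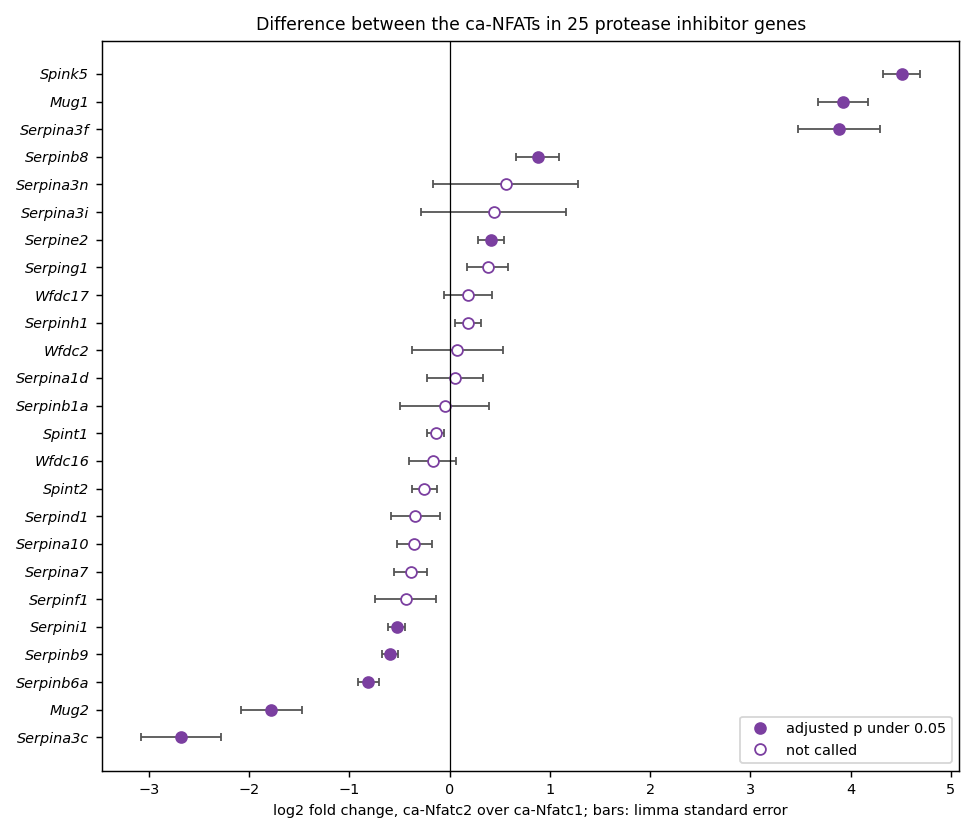
Log2 fold change of ca-Nfatc2 over ca-Nfatc1 on the log2(value + 1) scale for the 25 tested members, in order of size, with the limma standard error as bars. Spink5, Mug1 and Serpina3f lie between 3.88 and 4.51, Mug2 at -1.78 and Serpina3c at -2.68, and most other members within 1 of 0.

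The proteases that these inhibitors act on were read beside them. Of 50 listed, 28 were tested, with 13 higher and 10 lower with ca-Nfatc1 and 9 higher and 9 lower with ca-Nfatc2, and a median log2 fold change of 0.32 and 0.09. Called in either direction were 82.1% with ca-Nfatc1 and 64.3% with ca-Nfatc2, against 56.8% and 68.6% of all genes. The list includes digestive enzymes of acinar cells, and Prss2, Cela2a and Cela3b are acinar markers as well. The part of acinar RNA in this share was not tested. Plat (tPA), a target of Serpini1, averaged 6292 ± 531 units with ca-Nfatc1 and 2353 ± 422 with ca-Nfatc2, against 332 ± 71.6 with GFP (log2 fold changes 4.26 and 2.83, limma adjusted p 2.42e-14 and 5.82e-12). F7, the protease that starts coagulation with tissue factor, averaged 1267 ± 131 with ca-Nfatc1 and 2501 ± 315 with ca-Nfatc2, against 10.99 ± 3.65 with GFP. F10, the target of Serpina10, averaged 213 ± 31.1 with ca-Nfatc1 and 394 ± 56.9 with ca-Nfatc2, against 9.55 ± 2.84 with GFP. Both passed the test with each ca-NFAT, F7 at 6.78 and 7.76 and F10 at 4.37 and 5.26 on the log2 scale. Ctsk, the collagen-degrading cathepsin K, averaged 1384 ± 184 with ca-Nfatc1 and 228 ± 32.4 with ca-Nfatc2, against 68.3 ± 28.8 with GFP. The elastase Cela1 fell to 15.3 ± 4.34 with ca-Nfatc2, against 164 ± 21.1 with GFP. With ca-Nfatc1 Cela1 averaged 69.9 ± 59.0, a wide spread. Plau (uPA) was lower with both, at 90.6 ± 11.9 with ca-Nfatc1 and 65.4 ± 9.52 with ca-Nfatc2, against 119 ± 22.5 with GFP, and is given after its values were seen.

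Of the 11 receptors and partners, 10 were tested, with 1 higher and 4 lower with ca-Nfatc1 and 2 higher and 5 lower with ca-Nfatc2, so that 5 and 7 of 10 were called, near the 56.8% and 68.6% of all genes. Plaur, the uPA receptor, averaged 1660 ± 263 units with ca-Nfatc1 and 972 ± 120.3 with ca-Nfatc2, against 100.7 ± 31.0 with GFP (log2 fold changes 4.07 and 3.30). Vldlr, an endocytic receptor for protease and inhibitor complexes, averaged 2064 ± 121 with ca-Nfatc1 and 1831 ± 38.0 with ca-Nfatc2, against 3314 ± 256 with GFP. Thbd, thrombomodulin, and F2rl1, a receptor cleaved by trypsin-like proteases, were lower with both, by log2 fold changes of -0.85 and -0.76 with ca-Nfatc1 and -1.11 and -1.24 with ca-Nfatc2.

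Protease inhibitors of other families gave 6 higher and 7 lower of 25 tested with ca-Nfatc1, and 5 higher and 11 lower with ca-Nfatc2, with median log2 fold changes of -0.04 and -0.38. The 13 and 16 called of 25 were no larger a share than the 56.8% and 68.6% of all genes. Of the 25, 1 was higher and 13 lower with ca-Nfatc2 than with ca-Nfatc1, against 23.6% and 25.7% of all genes. Cast, calpastatin, the inhibitor of calpains, averaged 2216 ± 202 units with ca-Nfatc1 and 1146 ± 178 with ca-Nfatc2, against 766 ± 78.1 with GFP. Timp2, an inhibitor of matrix metalloproteinases, averaged 849 ± 172 with ca-Nfatc1, against 336 ± 107 with GFP (log2 fold change 1.38, limma adjusted p 2.63e-05). Ambp, the precursor of the Kunitz inhibitor bikunin, was lower at 139 ± 11.2 with ca-Nfatc1 and 110.3 ± 15.3 with ca-Nfatc2, against 452 ± 41.8 with GFP. Spock2, a proteoglycan of the testican family, averaged 2963 ± 236 with ca-Nfatc1 and 2233 ± 295 with ca-Nfatc2, against 7557 ± 1182 with GFP, and Spock1 and Spock3 were lower with ca-Nfatc2 as well (-1.34 and -1.76). With ca-Nfatc1 Spock1 averaged 118.9 and Spock3 60.7, against 222.8 and 140.1 with GFP.

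Markers of the other cell types of islet preparations were read beside the members. Alpha cell markers counted 1 higher and 4 lower of 6 with ca-Nfatc1, and 1 higher and 5 lower with ca-Nfatc2, and all 4 delta and PP cell markers were lower with both. Endothelial markers counted 1 higher and 1 lower of 8 with ca-Nfatc1, and 1 higher and 6 lower with ca-Nfatc2. Mesenchymal markers counted 0 higher and 1 lower of 8 with ca-Nfatc1, and 0 higher and 4 lower with ca-Nfatc2. Summed endothelial markers ranged over 2499 to 3515 units with ca-Nfatc1 and 2321 to 2959 with ca-Nfatc2, against 2799 to 4099 with GFP. Leukocyte markers counted 0 higher and 1 lower of 9 with ca-Nfatc1, and 2 higher and 4 lower with ca-Nfatc2. Acinar markers counted 4 higher and 1 lower of 6 with ca-Nfatc1, and 0 higher and 1 lower with ca-Nfatc2. Summed acinar markers ranged over 64.6 to 1061 units with ca-Nfatc1 and 59.3 to 127 with ca-Nfatc2, against 105 to 228 with GFP. Ductal markers counted 4 higher and 1 lower of 7 with ca-Nfatc1, and 5 higher and 1 lower with ca-Nfatc2. Their sum did not follow these counts, at 8058 to 11336 units with ca-Nfatc1 (median 9336) and 4787 to 12302 with ca-Nfatc2 (median 6322). With GFP it was 8434 to 9536 (median 8899). Over all genes 56.8% were called with ca-Nfatc1 and 68.6% with ca-Nfatc2. The part of these cell types in the changes of the members was not tested.

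Of the 71 members below the filter, 52 had a mean under 3 units in every group, and the highest group mean was 13.2 units, that of Serpina3g with ca-Nfatc2. They comprised 12 Kazal, 3 Kunitz and 14 WAP members, 16 of clade A, 22 of clade B and 4 of clades C to I. Besides those named above, Serpina3b averaged 7.1 units with ca-Nfatc1 and 3.7 with ca-Nfatc2, against 0.2 with GFP, and Serpinb6c averaged 5.7 with ca-Nfatc1 and 2.1 with ca-Nfatc2, against 0.8 with GFP. At these levels a value rests on a few reads, and no test was made. By position, the members cluster: 22 lie on chromosome 12 (6 tested), 19 on chromosome 2 (4 tested), 15 on chromosome 13 (3 tested), 13 on chromosome 1 (2 tested) and 10 on chromosome 18 (Spink5 tested).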

How the data were processed

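Per the labels and the study's methods, libraries of whole islet RNA were aligned to mm10 with Bowtie and quantified with RSEM by the authors, and the expected counts of each library were divided by a median-by-ratio size factor. The deposited values, normalized expected counts per gene, are a signal and not whole reads, so no count model was used. The table has 1 column for each of the 15 libraries, 5 per virus. As in the study, a gene was kept when its 75th percentile across libraries exceeded 10. Values were tested with limma 3.58.1 (R 4.3.3) with a trend on log2(value + 1), 1 coefficient per virus over all libraries, two-sided, with Benjamini-Hochberg adjustment over all 14151 genes and a threshold of 0.05. The procedure was also run on simulated data with few changed genes, the same spread setting for every gene and no day effect. The real data differ in each of these, so that run does not bear on the calls made here. The comparisons with GFP share the same GFP libraries.

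Members are the rows whose symbol begins with Serpin, Spink, Spint and a digit, or Wfdc, or is Mug1 or Mug2; 1 of the 97 matching genes is not reported here. Members and lists were chosen with earlier results of these data known. Values of every library are given for members with an adjusted p under 0.05, a log2 fold change of at least 2 in size against GFP and a mean of at least 50 in a group, and for the 5 members of highest mean. From the lists of proteases, receptors and other inhibitors, the up to 4 largest called changes with a mean of at least 100 in a group are named. The 4-fold mark used for counts of large changes was chosen after the values were seen. Levels per kilobase use the mean length of the gene's transcripts. Gene spans and promoter windows are from RefSeq (GRCm38.p6), the windows counted from a transcript start that can lie inside the span, transcripts from GENCODE.

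The 3 libraries of a day came from 1 pool of islets per the series design, so the day pairs them. Deviations from the group means correlated at 0.0544 to 0.473 over 15 same-day pairs (mean 0.219, 12 above 0.1), and the 60 pairs from different days averaged -0.0551. The fit without the block is the main one, as the study states no block, and the day as a block is an alternative. Other alternatives were pseudocounts of 0.5 and 5, no filter, a mean of at least 100, equal totals, quantile normalization, no trend, a robust prior, only the 2 groups compared, and leaving out each library in turn.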

Additional observations from a re-analysis of the deposited data

Results flagged for a closer look

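A group's extreme library stood far from the others, by Dixon's ratio, in 7 of 75 combinations of a tested member and a virus, where chance gives about 1 in 20. In ca-Nfatc1 islets this was Serpina7 in replicate 2, at 447 units with the next library at 332, and in ca-Nfatc2 islets there was none.

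The other 6 were GFP libraries. Replicate 3 was lowest for Serpinb9, at 779 units (next 895), and for Serpinb6a, at 2150 (next 2354). Replicate 5 was highest for Serpina3i, at 20.3 units (next 5.55), and for Serpinb1a, at 42.4 (next 21.5). Wfdc16 was lowest in replicate 4, at 137 (next 195), and Mug2 was highest in replicate 2, at 1.34 units, where the other GFP libraries were at 0.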

How the results depend on the processing

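Over 25 alternative settings, 1845 member values were recomputed: 0 changed direction among called values, 14 lost the call and 28 gained one, in 15 of 75 combinations of member and comparison. With a mean of at least 100, which leaves 15 members, 5 were higher with ca-Nfatc1 and 4 with ca-Nfatc2 against GFP, and 3 were lower with ca-Nfatc2 than with ca-Nfatc1. With the day as a replicate block 8 were lower with ca-Nfatc2 than with ca-Nfatc1, and beside the calls given with the results the block changed no other call. Leaving out single libraries gave 10 to 10 members higher and 4 to 8 lower with ca-Nfatc1 against GFP, 8 to 9 higher and 8 to 9 lower with ca-Nfatc2 against GFP, and 5 to 6 higher and 5 to 7 lower with ca-Nfatc2 against ca-Nfatc1. Without ca-Nfatc1 replicate 4, 4 were lower with ca-Nfatc1 than with GFP, and without ca-Nfatc2 replicate 4, 7 were lower with ca-Nfatc2 than with ca-Nfatc1. Quantile normalization moved the median of all genes to -0.12 with ca-Nfatc1 against GFP, and under it Wfdc17 was lower with both (-0.97 with ca-Nfatc1 and -0.75 with ca-Nfatc2), Serpina7 (-0.46) was lower with ca-Nfatc1, and Serpine2 (-0.35) with ca-Nfatc2. Equal totals lost the calls of Serpinf1 (-0.76 in place of -0.82, adjusted p 0.0507) and Serpinh1 (-0.29 in place of -0.35, adjusted p 0.0892) with ca-Nfatc1. Members near the filter rest on few reads, which limits their precision.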
